A study of Mus musculus with 17 samples.

Results

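The 9 genes Pax2, Gad1, Gad2, Slc32a1, Ptf1a, Neurog1, Tfap2a, Tfap2b and Slc6a5 mark the inhibitory neurons of the cerebellum and their progenitors. They were taken by name from a list of GABAergic and glycinergic lineage genes, chosen with earlier results of these data known. All 9 were among the 31517 genes counted. RNA from whole cerebella of C57BL/6 mice at postnatal day 3, freed of meninges and selected for poly-A, was sequenced in 17 libraries, to ask what deletion of the replication checkpoint kinase gene Atr does to the growing cerebellum. Every mouse carried Math1-Cre, a recombinase driven in the progenitors of granule neurons, so that loxP-flanked alleles are lost in that lineage and can persist in other cells. The first group had loxP-flanked Atr, loxP-flanked Bax and null Bak (5 libraries, called Atr-deleted Bax-Bak libraries), and its controls had loxP-flanked Bax and null Bak with Math1-Cre (4 libraries, called Bax-Bak controls). Bax and Bak are the effectors of mitochondrial apoptosis. The other Atr group had loxP-flanked Atr and loxP-flanked p53 (5 libraries, called Atr-deleted p53 libraries), and its controls had loxP-flanked p53 with Math1-Cre (3 libraries, called p53 controls). The labels name separate samples and say nothing of litters, so the p-values cover only the variation among these samples, and part of it may be technical.

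Cerebellar inhibitory neurons do not descend from the Math1 lineage. They arise in the ventricular zone of the cerebellum from progenitors that need the transcription factor Ptf1a, whereas the Math1 lineage of the rhombic lip gives the glutamatergic neurons, granule neurons above all. Purkinje cells are among the first inhibitory neurons to leave this zone. Precursors that switch on Pax2 follow, divide in the white matter of the young cerebellum and become Golgi, basket and stellate cells. Mature inhibitory neurons make GABA with the enzymes of Gad1 and Gad2 and load it into vesicles with the transporter of Slc32a1, and glycinergic neurons take up glycine through the transporter of Slc6a5.

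The promoters of 4 members are shown because they stand for the steps of this lineage: Ptf1a for the progenitor, Pax2 for the migrating precursor, Slc32a1 for all inhibitory neurons and Slc6a5 for the glycinergic ones. Each window runs from 250 bases before to 50 bases after a transcript start of RefSeq (GRCm38.p6), 5′ to 3′ on the strand of the gene, and all 4 lie on the plus strand. They are chr2:19445413-19445712 for Ptf1a, chr19:44755502-44755801 for Pax2, chr2:158610508-158610807 for Slc32a1 and chr7:49910049-49910348 for Slc6a5. Capitals mark CANNTG, the E-box letters read by basic helix-loop-helix factors such as Ptf1a and Neurog1, and TGGGAA or its reverse complement TTCCCA, the letters read by Rbpj, a partner of Ptf1a.
Ptf1a: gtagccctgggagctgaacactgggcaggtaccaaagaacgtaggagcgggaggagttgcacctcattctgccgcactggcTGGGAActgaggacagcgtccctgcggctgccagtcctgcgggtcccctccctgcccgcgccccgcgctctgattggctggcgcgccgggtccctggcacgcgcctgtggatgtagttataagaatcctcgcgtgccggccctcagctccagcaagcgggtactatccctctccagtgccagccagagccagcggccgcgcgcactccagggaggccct
Pax2: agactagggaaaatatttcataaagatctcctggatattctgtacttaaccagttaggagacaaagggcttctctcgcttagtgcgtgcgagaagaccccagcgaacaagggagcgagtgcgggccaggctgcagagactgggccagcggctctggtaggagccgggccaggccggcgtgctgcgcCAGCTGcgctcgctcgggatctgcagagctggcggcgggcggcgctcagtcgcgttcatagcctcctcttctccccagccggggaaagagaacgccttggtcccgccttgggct
Slc32a1: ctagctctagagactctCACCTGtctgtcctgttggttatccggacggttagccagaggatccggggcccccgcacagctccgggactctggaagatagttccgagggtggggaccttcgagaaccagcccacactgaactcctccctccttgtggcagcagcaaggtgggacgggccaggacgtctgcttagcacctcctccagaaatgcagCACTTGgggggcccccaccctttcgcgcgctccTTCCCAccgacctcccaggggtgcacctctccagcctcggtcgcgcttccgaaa
Slc6a5: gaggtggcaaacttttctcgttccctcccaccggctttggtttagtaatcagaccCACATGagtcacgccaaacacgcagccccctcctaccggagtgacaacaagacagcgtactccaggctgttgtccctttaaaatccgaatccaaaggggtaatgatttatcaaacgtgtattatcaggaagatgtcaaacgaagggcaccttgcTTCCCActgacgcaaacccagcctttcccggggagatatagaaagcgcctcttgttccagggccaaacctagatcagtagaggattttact
All 9 members matched the promoter table, with 13 windows between them. CANNTG, searched on both strands, was in 9 of the 13 windows, against 72.3% of 32851 mouse promoter windows of the same length. TGGGAA or TTCCCA was in 5 of the 13, against 25.6% of all windows, and GCCNNNGGC, the letters read by the Tfap2 factors, was in 3 of the 13, against 16.6%. TATAAA or TTTATA was in 1 of the 13, that of Gad1, against 13.6%. Of the motifs marked in capitals, the Ptf1a window shown held TGGGAA or its complement and no CANNTG, the Pax2 window only CANNTG, and those of Slc32a1 and Slc6a5 both. Pax2 and Slc6a5 also had windows that are not printed. Those of Pax2 start at 44746351, with TGGGAA or its complement and no CANNTG, and at 44756656, with only CANNTG. That of Slc6a5, from 49911450, held only CANNTG. The Pax2 window printed ends before 44756045, where the gene starts in the annotation used for counting. GCCNNNGGC, not marked, was also in the printed windows of Ptf1a (1 match) and Pax2 (2 matches). These matches are letters in a window and not shown binding sites.

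The 16 deep libraries held 42987953 to 100659645 estimated counts, where 1 count was worth at most 0.0233 per 1000000 before scaling. CPM are counts per 1000000 counts of the library, scaled by TMM factors. Replicate 3 of the Atr-deleted p53 libraries held 13601 counts, 12 of them from the members. There 1 count was worth 73.5 per 1000000 before scaling, so that group was used with 4 libraries and this library was left out. Its name carries the same sample number as replicate 1 of the group. Whole-gene Atr RNA did not mark the deletion: it spanned 36.5 to 44.1 CPM in Atr-deleted Bax-Bak libraries and 38.8 to 47.9 CPM in Bax-Bak controls, and 33.5 to 39.9 CPM in Atr-deleted p53 libraries and 35.6 to 37.4 CPM in p53 controls. Bak1 was at most 0.616 CPM in the libraries of the null allele and at least 31.8 CPM in the others. Mitochondrial genes took 3.53% to 4.35% of the counts in Atr-deleted Bax-Bak libraries against 1.81% to 2.55% in Bax-Bak controls, and 2.47% to 9.01% in Atr-deleted p53 libraries, where replicate 2 was highest, against 2.13% to 3.23% in p53 controls. The part of this difference in the results below was not tested.

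Levels of different genes are compared in TPM, which divides counts by transcript length. The GABA enzyme gene Gad1 was the most abundant member in every group, at 256 ± 29.1 TPM (SD, n = 5) in Atr-deleted Bax-Bak libraries, 153 ± 14.4 TPM (n = 4) in Bax-Bak controls, 133 ± 23.7 TPM (n = 4) in Atr-deleted p53 libraries and 129.9 ± 7.62 TPM (n = 3) in p53 controls. Slc32a1 came next in all 4 groups, at 92.2 ± 8.93, 53.6 ± 5.17, 51.9 ± 10.1 and 53.7 ± 2.87 TPM in the same order of groups. Tfap2b, Tfap2a, Pax2 and Gad2 followed, with Tfap2a and Pax2 overlapping in their ranges in every group. In Bax-Bak controls Tfap2b had 32.6 ± 3.58 TPM, Tfap2a 23.8 ± 2.83 TPM, Pax2 20.2 ± 1.62 TPM and Gad2 17.8 ± 2.20 TPM (SD, n = 4). The progenitor factors Ptf1a and Neurog1 and the glycine transporter gene Slc6a5 were lowest, at 9.09 ± 0.850, 6.42 ± 0.744 and 6.35 ± 0.823 TPM in those controls, with Neurog1 and Slc6a5 overlapping in all 4 groups. Every member was counted in all 16 deep libraries.

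Among the Bax-Bak groups, the 9 members stood higher where Atr was deleted, while other listed inhibitory genes, given below, did not all do so. All 9 members passed the test as higher in the 5 Atr-deleted libraries than in the 4 Bax-Bak controls. The rises ran from 1.34-fold for Ptf1a to 1.76-fold for Pax2. With this background scaled by itself, the groups did not overlap for any member. Of the 17425 genes tested, 22.5% were called higher and 22% lower, 44.5% in all, and for 18.5% every Atr-deleted library lay above every control. The median log2 fold change was 0.67 over the members and 0.04 over all genes tested. In bulk RNA, a larger share of cells of a type and more RNA per cell cannot be told apart.

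**Figure D1:**
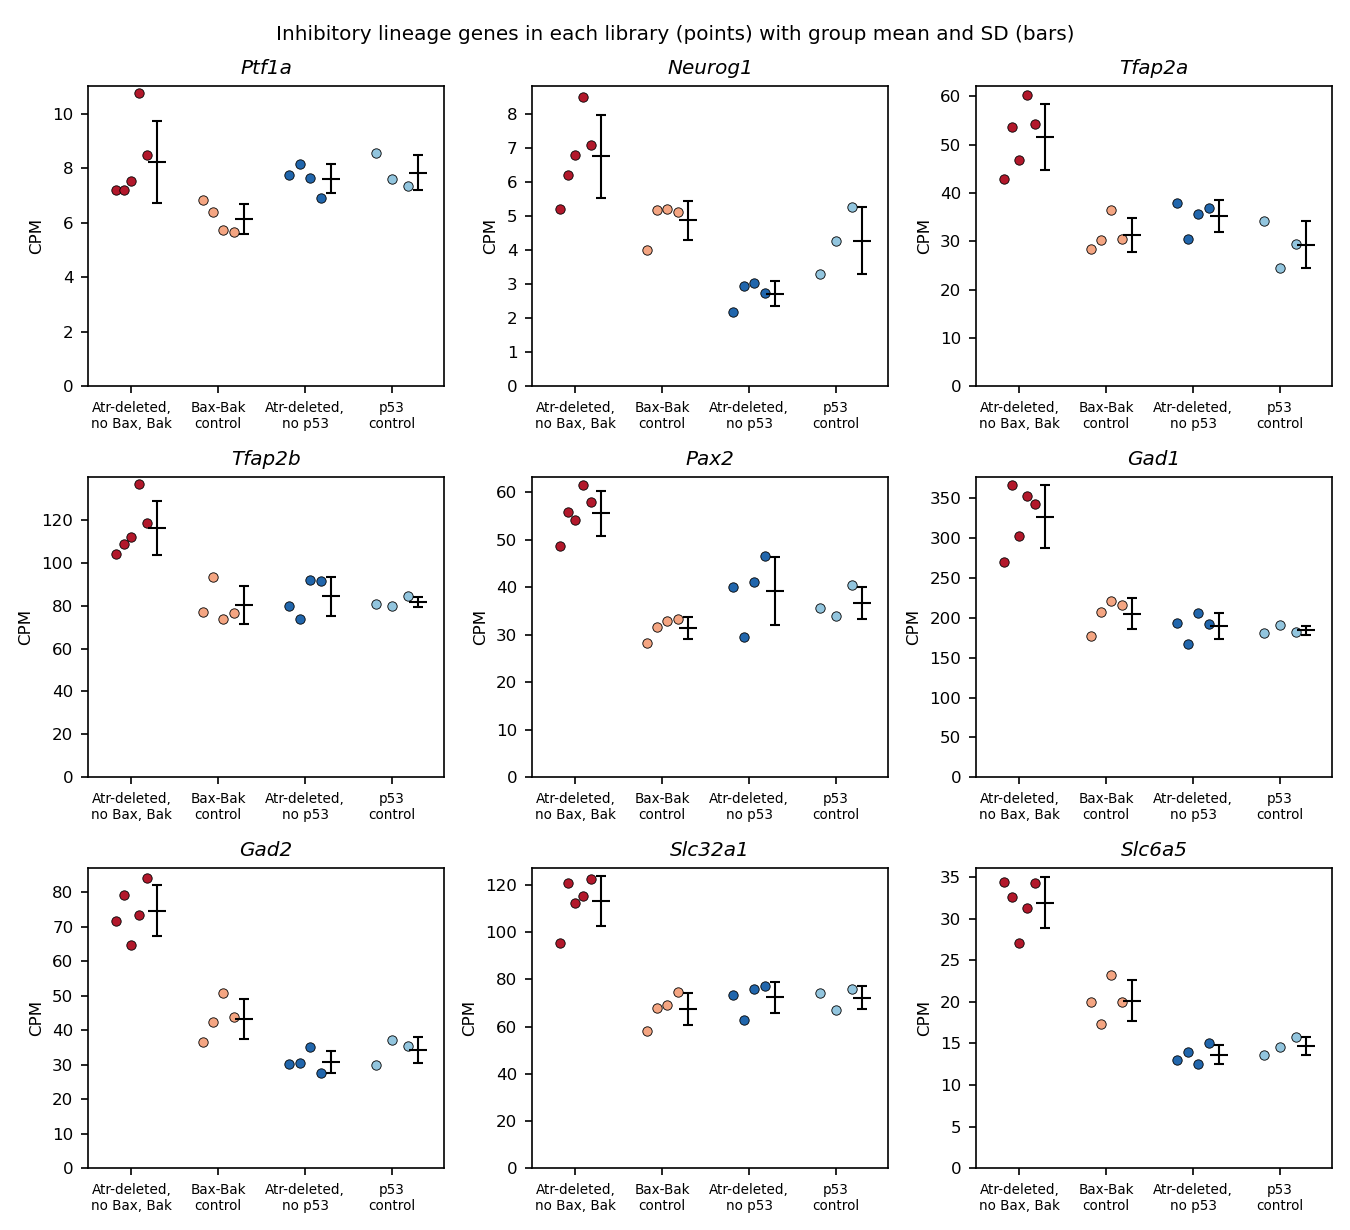
CPM of each member (vertical axis, from 0) in the 16 deep libraries, with the 4 groups along the horizontal axis; points are libraries in replicate order and bars are the group mean and SD. The 5 Atr-deleted Bax-Bak libraries lie above their 4 controls in all 9 panels, and the Atr-deleted p53 libraries overlap theirs in all panels but that of Neurog1.

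Among the progenitor factors, Ptf1a, which commits ventricular zone cells to the inhibitory fate, had 7.21, 7.21, 7.53, 10.8 and 8.47 CPM in the Atr-deleted Bax-Bak libraries, against 6.82, 6.39, 5.74 and 5.67 CPM in Bax-Bak controls. The lowest Atr-deleted libraries stood just above the highest control, and 1 library, replicate 4, stood well above the rest. The log2 fold change was 0.42 ± 0.13 (SE, adjusted p = 0.0235 by edgeR), the smallest of the 9. Neurog1, a helix-loop-helix factor of early inhibitory precursors, had 5.20, 6.19, 6.77, 8.49 and 7.07 CPM against 4.00, 5.16, 5.19 and 5.11 CPM in Bax-Bak controls. Its groups parted by a narrow margin, with Atr-deleted replicate 1 at 5.20 CPM just above the highest control at 5.19 CPM. With the 16 libraries scaled together they overlapped, at 5.12 CPM in Atr-deleted replicate 1 and 5.20 CPM in control replicate 3. The log2 fold change was 0.47 ± 0.15 (SE, adjusted p = 0.022 by edgeR). These are the least abundant members by count, and their calls depended on single controls. Without control replicate 1, Neurog1 had a log2 fold change of 0.35 with an edgeR adjusted p of 0.0775, and without control replicate 3 or 4, Ptf1a had 0.39 or 0.36 with adjusted p of 0.0543 or 0.0737.

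Tfap2a and Tfap2b encode AP-2 transcription factors found in inhibitory progenitors and the neurons they give rise to. Tfap2a had 43.0, 53.7, 46.8, 60.4 and 54.3 CPM in the Atr-deleted Bax-Bak libraries, against 28.3, 30.2, 36.5 and 30.6 CPM in Bax-Bak controls. Tfap2b had 104, 109, 112, 137 and 119 CPM against 77.0, 93.2, 73.7 and 76.7 CPM in Bax-Bak controls. For both genes replicate 4 was the highest Atr-deleted library and replicate 1 the lowest, above every control. The log2 fold changes were 0.72 ± 0.10 for Tfap2a (SE, adjusted p = 0.000328 by edgeR) and 0.53 ± 0.09 for Tfap2b (adjusted p = 0.000783).

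Pax2, the factor that marks migrating precursors of the interneurons, showed the largest fold change of the 9. It had 48.7, 55.8, 54.1, 61.5 and 57.8 CPM in the Atr-deleted Bax-Bak libraries, against 28.2, 31.6, 32.9 and 33.2 CPM in Bax-Bak controls. The gap between the groups was wider than the range of either. The log2 fold change was 0.82 ± 0.07 (SE, adjusted p = 1.3e-05 by edgeR), above 93.3% of all genes tested.

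Summed over transcripts, the genes of GABA synthesis and loading moved by similar amounts. The main coding transcript of Gad1 rose less than the whole gene, as given below. Gad1, which makes most of the GABA of the brain, had 270.2, 367, 303, 353 and 343 CPM in the Atr-deleted Bax-Bak libraries, against 177, 207, 221 and 216 CPM in Bax-Bak controls. Gad2, the isoenzyme concentrated at terminals, had 71.7, 79.4, 64.8, 73.4 and 84.2 CPM against 36.6, 42.4, 50.8 and 43.8 CPM in Bax-Bak controls. Slc32a1, the vesicular transporter shared by GABA and glycine, had 95.4, 121, 112, 115 and 122 CPM against 58.0, 67.7, 69.2 and 74.7 CPM in Bax-Bak controls. Control replicate 1 was lowest for all 3 genes and Atr-deleted replicate 1 or 3 was lowest in its group, still above every control. The log2 fold changes were 0.67 ± 0.10 for Gad1 (SE, adjusted p = 0.000283 by edgeR), 0.78 ± 0.10 for Gad2 (adjusted p = 0.000126) and 0.75 ± 0.09 for Slc32a1 (adjusted p = 6.81e-05). Slc6a5, the glycine transporter of glycinergic terminals, had 34.5, 32.6, 27.0, 31.3 and 34.3 CPM in the Atr-deleted Bax-Bak libraries, against 19.98, 17.3, 23.3 and 19.97 CPM in Bax-Bak controls. The groups were apart, and the log2 fold change was 0.66 ± 0.09 (SE, adjusted p = 0.000201 by edgeR).

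The sample names of this background fall into number series whose meaning the labels do not give. All 5 Atr-deleted names begin with 1836, while 2 controls begin with 100019 and 2 with 1842, and genotype cannot be told apart from number series. Against the 2 controls of series 100019 alone, 8 of the 9 members and 21.2% of all genes tested were called higher, with Ptf1a at a log2 fold change of 0.32 (edgeR adjusted p = 0.151) as the exception. Against the 2 controls of series 1842 alone, 8 members and 20.2% of all genes were called higher, with Neurog1 at 0.34 (edgeR adjusted p = 0.121) as the exception. Transthyretin RNA (Ttr), made by the choroid plexus, was above 1000 CPM in 4 libraries, Atr-deleted replicates 1 and 3 and control replicates 1 and 2, and with these left out all 9 members and 18.3% of all genes were called higher.

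Among the p53 groups, no member was called with Atr deletion. In that comparison 8 of 17361 genes were called, which is 0.0461%, all of them higher in this fit, and 1142 genes had an unadjusted p below 0.05, 1 member among them. DESeq2 called 129 genes, 65.9% of them higher, and limma-voom 4, and neither called a member. Without p53 control replicate 1, 13 genes were called, 38.5% of them higher. The median log2 fold change was 0.00 over the members and 0.01 over all genes. A p that misses the threshold does not show that the levels are equal, and the 95% intervals give the range left by these libraries.

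Pax2 had 40.0, 29.5, 41.1 and 46.5 CPM in the Atr-deleted p53 libraries, against 35.7, 33.9 and 40.5 CPM in p53 controls. The groups overlapped, and replicate 2 of the Atr-deleted group, the library with the highest mitochondrial share, was the lowest. The log2 fold change was 0.10 with a 95% interval of -0.23 to 0.43. Gad1 had 194, 167, 207 and 192 CPM against 181, 191 and 182 CPM in p53 controls, a log2 fold change of 0.04 (95% interval -0.16 to 0.24). Slc32a1 had 73.4, 62.8, 75.7 and 77.3 CPM against 74.1, 66.8 and 75.7 CPM in p53 controls, a log2 fold change of 0.00 (95% interval -0.21 to 0.22). Both genes overlapped between the groups, and the difference from their effects without Bax and Bak is tested directly below. Gad2 had 30.1, 30.6, 35.1 and 27.5 CPM in the Atr-deleted p53 libraries, against 30.1, 37.2 and 35.5 CPM in p53 controls. Slc6a5 had 13.0, 14.0, 12.5 and 15.0 CPM against 13.7, 14.6 and 15.8 CPM in p53 controls. The groups overlapped for both, with log2 fold changes of -0.15 (95% interval -0.40 to 0.10) for Gad2 and -0.11 (95% interval -0.35 to 0.14) for Slc6a5.

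Of the progenitor factors, Ptf1a had 7.74, 8.16, 7.65 and 6.90 CPM in the Atr-deleted p53 libraries, against 8.57, 7.60 and 7.35 CPM in p53 controls. Tfap2b had 79.9, 73.7, 91.9 and 91.5 CPM against 80.9, 79.9 and 84.4 CPM in p53 controls. Tfap2a had 38.05, 30.5, 35.6 and 36.9 CPM against 34.2, 24.4 and 29.4 CPM in p53 controls. All 3 overlapped between the groups, with log2 fold changes of -0.04 for Ptf1a, 0.04 for Tfap2b and 0.27 for Tfap2a, whose 95% interval ran from -0.02 to 0.55. Neurog1 was the exception in its spread. It had 2.19, 2.93, 3.02 and 2.73 CPM in the Atr-deleted p53 libraries, against 3.29, 4.27 and 5.26 CPM in p53 controls. Every Atr-deleted library lay below every control, as for 3.76% of genes tested (4.07% had the reverse order), and the log2 fold change was -0.65 (95% interval -1.11 to -0.19). It did not pass adjustment over all genes (edgeR unadjusted p = 0.0103, adjusted p = 0.59). The only p53 control of the same number series as the Atr-deleted libraries, 1843, was the control at 3.29 CPM.

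The difference between the Atr effects was then tested directly, in a fit of all 16 deep libraries. It was called for 7 of the 9 members, all with the higher effect without Bax and Bak, where 8.05% of 18189 genes were called in that direction and 16.1% in either. The difference in log2 fold change was 1.11 ± 0.25 for Neurog1 (SE, adjusted p = 0.00649 by edgeR), 0.93 ± 0.15 for Gad2 (adjusted p = 0.000861), 0.76 ± 0.14 for Slc6a5 (adjusted p = 0.00205) and 0.74 ± 0.13 for Slc32a1 (adjusted p = 0.00116). It was 0.71 ± 0.16 for Pax2 (edgeR adjusted p = 0.00659), 0.62 ± 0.13 for Gad1 (adjusted p = 0.00567) and 0.48 ± 0.13 for Tfap2b (adjusted p = 0.0193). The difference did not pass for Tfap2a, at 0.44 ± 0.17 (SE, edgeR adjusted p = 0.0873, 95% interval 0.08 to 0.80), or for Ptf1a, at 0.46 ± 0.19 (adjusted p = 0.106, 95% interval 0.06 to 0.85). The call for Tfap2b was lost without Atr-deleted Bax-Bak replicate 5, at a difference of 0.44 (edgeR adjusted p = 0.0562), or without p53 control replicate 3, at 0.46 (adjusted p = 0.0577). That for Pax2 was lost without the 4 libraries of high Ttr, at 0.66 (edgeR adjusted p = 0.0504), where 4.26% of genes were called in that direction. The difference for Tfap2a passed without Bax-Bak control replicate 3 (edgeR adjusted p = 0.0467) or without p53 control replicate 2 (adjusted p = 0.049).

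**Figure D2:**
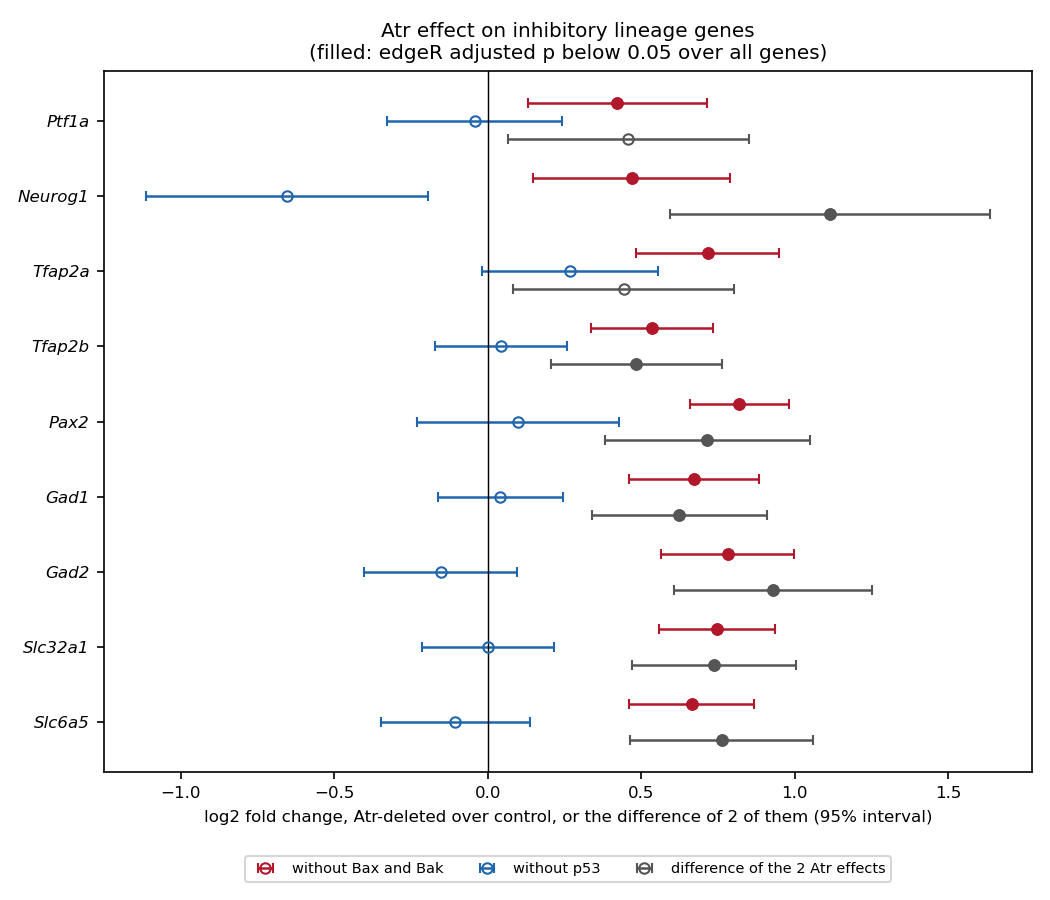
Log2 fold change of Atr-deleted over control libraries for each member (horizontal axis, with 95% intervals), without Bax and Bak, without p53, and the difference between these Atr effects; filled symbols have an edgeR adjusted p below 0.05 over all genes. All 9 effects without Bax and Bak lie above 0, while without p53 only the interval of Neurog1, at -1.11 to -0.19, leaves out 0.

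The backgrounds were also set against each other, with the 16 libraries scaled together. These groups differ in alleles and in the deposited table, which cannot be told apart. Among Atr-deleted libraries, 8 members were higher without Bax and Bak than without p53, where 24.3% of genes were called higher, 22.8% lower and 47.1% in all, and for 21.1% every Atr-deleted Bax-Bak library lay above every Atr-deleted p53 library. Neurog1 averaged 6.63 ± 1.19 CPM in Atr-deleted Bax-Bak libraries (SD, n = 5) and 2.75 ± 0.372 CPM in those without p53 (n = 4), a log2 fold change of 1.27 ± 0.17 (SE, adjusted p = 1.31e-05 by edgeR). Gad2 averaged 73.4 ± 7.38 CPM and 31.2 ± 3.14 CPM in these groups, a log2 fold change of 1.23 ± 0.10 (SE, adjusted p = 1.73e-07 by edgeR). Slc6a5 averaged 31.4 ± 3.04 CPM and 13.8 ± 1.12 CPM, a log2 fold change of 1.18 ± 0.10 (SE, adjusted p = 1.13e-07 by edgeR). The other 5 had log2 fold changes of 0.42 for Tfap2b to 0.74 for Gad1, and Ptf1a had 0.07 ± 0.12 (SE, adjusted p = 0.671 by edgeR).

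Among controls, Slc6a5 alone was called, where 8.71% of genes were called higher, 9.32% lower and 18% in all. It averaged 20.04 ± 2.49 CPM in Bax-Bak controls (SD, n = 4) and 15.0 ± 1.07 CPM in p53 controls (n = 3), a log2 fold change of 0.42 ± 0.11 (SE, adjusted p = 0.0128 by edgeR). Without p53 control replicate 1 its edgeR adjusted p was 0.0549. Ptf1a stood the other way, at 6.12 ± 0.544 CPM in Bax-Bak controls and 7.995 ± 0.675 CPM in p53 controls, with groups that did not overlap and a log2 fold change of -0.39 ± 0.14 (SE, adjusted p = 0.0637 by edgeR). DESeq2 and upper-quartile scaling called it, with adjusted p of 0.0308 and 0.0412. Pax2 also had groups that did not overlap, lower in the Bax-Bak controls as 16.2% of genes were, with a log2 fold change of -0.26 ± 0.12 (SE, adjusted p = 0.146 by edgeR). In the Atr-deleted Bax-Bak libraries Ptf1a averaged 8.10 ± 1.49 CPM on this scale and in those without p53 7.71 ± 0.584 CPM, so that its Bax-Bak controls were the lowest of the 4 groups.

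Of 12 other listed transcription factors of inhibitory progenitors and neurons, 8 were called higher, 0 lower and 4 were not called in Atr-deleted Bax-Bak libraries. Their median log2 fold change was 0.53, and 22.5% of all genes tested were called higher. Neurog2, a helix-loop-helix relative of Neurog1, averaged 14.7 ± 1.71 CPM in Atr-deleted libraries (SD, n = 5) and 8.04 ± 0.601 CPM in Bax-Bak controls (n = 4), a log2 fold change of 0.87 ± 0.10 (SE, adjusted p = 4.7e-05 by edgeR). Olig2, which marks ventricular zone progenitors and also oligodendrocyte precursors, had a log2 fold change of 0.63 ± 0.07 (SE, adjusted p = 6.24e-05 by edgeR). Lhx1, a factor of Purkinje cells and among the 4 not called, averaged 102 ± 13.0 CPM in Atr-deleted libraries and 122 ± 17.4 CPM in Bax-Bak controls; it was chosen after its values were seen. Prdm13, a chromatin factor downstream of Ptf1a in the spinal cord and cerebellum, had 0.72 ± 0.10 (SE, adjusted p = 0.000171 by edgeR). The difference between the Atr effects was called for 4 of the 12, all higher, where 8.05% of all genes were called in that direction. Among them were Neurog2 at 1.07 (edgeR adjusted p = 0.000202), Olig2 at 0.80 (adjusted p = 0.000328) and Gsx1 at 0.77 (adjusted p = 0.0149). It was not called for Prdm13 (edgeR adjusted p = 0.0989). In controls 4 of the 12 were lower without Bax and Bak than without p53, and 0 higher. Over all genes tested, 9.32% were called lower and 8.71% higher there.

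Genes of GABA and glycine synthesis, uptake and breakdown moved in both directions. Of 11 listed, 6 were called higher and 1 lower without Bax and Bak, with a median log2 fold change of 0.20. Over all genes tested, 22.5% were called higher and 22% lower. Slc6a9, a glycine transporter of glia, averaged 92.5 ± 8.46 CPM in Atr-deleted libraries (SD, n = 5) and 54.4 ± 4.18 CPM in Bax-Bak controls (n = 4), a log2 fold change of 0.76 ± 0.07 (SE, adjusted p = 1.87e-05 by edgeR). Shmt1, which makes glycine in the cytosol and serves nucleotide synthesis, was the member that fell, by 0.87 ± 0.08 on the log2 scale (SE, adjusted p = 2.3e-05 by edgeR). The difference between the Atr effects was called higher for 4 of the 11 and lower for Shmt1, where 8.05% of all genes were called in each direction. Among those higher were Slc6a9 at 0.60 (edgeR adjusted p = 0.00396) and the genes of GABA breakdown, Aldh5a1 at 0.41 (adjusted p = 0.00227) and Abat at 0.56 (adjusted p = 0.003).

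On the receiving side of the inhibitory synapse, calls went both ways. Of 20 listed genes of GABA-A and glycine receptors and their synapse, 5 were called higher and 3 lower without Bax and Bak, where 22.5% of all genes were called higher and 22% lower, and the median log2 fold change was 0.06. Slc12a5, the chloride extruder that makes GABA inhibitory as neurons mature, had a log2 fold change of 0.53 ± 0.07 (SE, adjusted p = 9.89e-05 by edgeR), and Nlgn2, the adhesion protein of inhibitory synapses, had 0.45 ± 0.06 (adjusted p = 0.000112). Glra2, a glycine receptor subunit gene and 1 of the 3 lower, chosen after its values were seen, fell by 0.34 ± 0.08 on the log2 scale (SE, adjusted p = 0.00434 by edgeR). Of 12 markers of Golgi, basket and stellate cells, 5 were called higher, 1 lower and 6 were not called. Against them stand the 22.5% of all genes called higher and 22% lower, and the median log2 fold change of the 12 was 0.24. The markers named next are among the 5 higher. Kit, the receptor of stellate and basket cells, averaged 172 ± 14.3 CPM in Atr-deleted libraries and 137 ± 8.84 CPM in Bax-Bak controls, a log2 fold change of 0.33 ± 0.07 (SE, adjusted p = 0.00204 by edgeR). Sorcs3 had 0.61 ± 0.14 (edgeR adjusted p = 0.00442) and Lgi2 had 0.36 ± 0.08 (adjusted p = 0.00504). The difference between the Atr effects was called higher for 3 of the 20 synapse genes and 3 of the 12 markers. Over all genes tested, 8.05% were called in that direction. Slc12a5 at 0.54 (edgeR adjusted p = 0.00139) and Kit at 0.47 (edgeR adjusted p = 0.00384) were among those called. In controls 3 of the 12 markers were lower without Bax and Bak than without p53, and 0 higher. There 9.32% of all genes were called lower and 8.71% higher. Between the Atr-deleted groups 4 of the 12 were higher without Bax and Bak and 3 lower, where 24.3% of all genes were called higher and 22.8% lower.

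**Figure D3:**
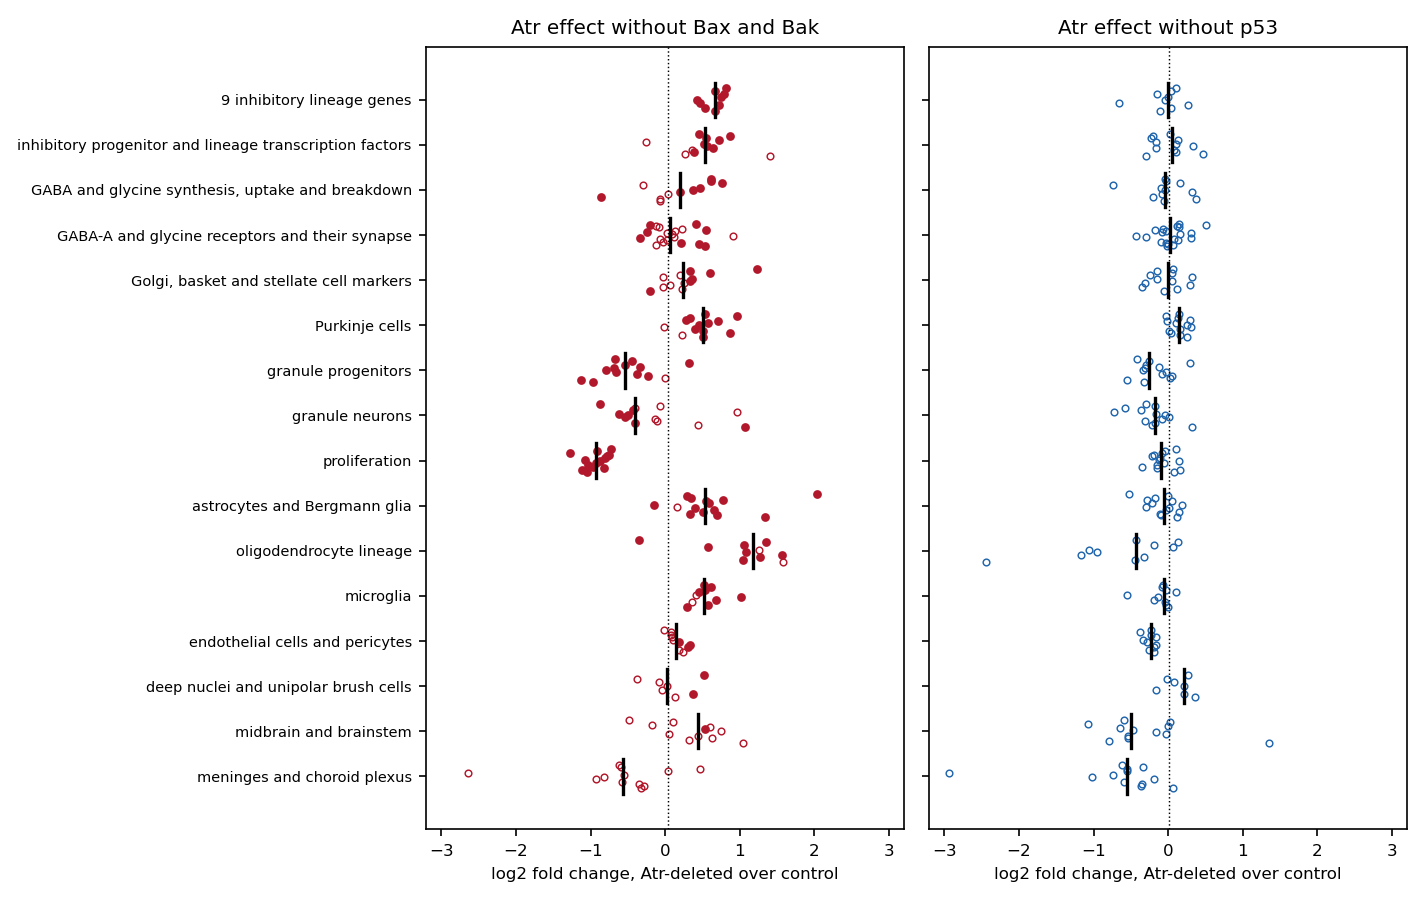
Log2 fold change of Atr-deleted over control libraries (horizontal axis) for each gene of the 9 members and of 15 other lists (rows), without Bax and Bak on the left and without p53 on the right; filled points have an edgeR adjusted p below 0.05, short black lines are list medians and the dotted line is the median of all genes tested. On the left the members' median is 0.67 and that of proliferation genes -0.92, and on the right no point is filled.

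Markers of other cells moved in the same comparison, where 22.5% of all genes were called higher and 22% lower. Purkinje cells also use Gad1, Gad2 and Slc32a1, and 11 of 13 Purkinje markers were called higher and 0 lower without Bax and Bak, with a median log2 fold change of 0.50 and a summed level of 2950 to 4256 CPM in Atr-deleted libraries against 2387 to 2796 CPM in Bax-Bak controls. Among them Foxp4 had a log2 fold change of 0.40 ± 0.05 (SE, adjusted p = 5.87e-05 by edgeR), Itpr1, the calcium release channel, had 0.71 ± 0.11 (adjusted p = 0.000388) and Rora, a nuclear receptor Purkinje cells need, had 0.58 ± 0.10 (adjusted p = 0.00106). In the p53 background the Purkinje sum was 2528 to 3016 CPM in Atr-deleted libraries against 2317 to 2587 CPM in controls, and no gene of the 15 lists was called. Of 14 astrocyte and Bergmann glia markers 12 were higher and 1 lower, with sums of 6354 to 7870.2 CPM in Atr-deleted libraries against 4798 to 5213 CPM in Bax-Bak controls. Of 10 oligodendrocyte markers 7 were higher and 1 lower, with sums of 1379.97 to 2992 CPM against 787 to 1378.55 CPM in Bax-Bak controls. Of 10 microglia markers 8 were higher and 0 lower, with sums of 181 to 222 CPM against 124 to 166 CPM in Bax-Bak controls. By the direct test of the difference, 4 of 13 Purkinje and 8 of 14 astrocyte markers had a higher Atr effect without Bax and Bak. The same held for 7 of 10 oligodendrocyte and 4 of 10 microglia markers. None in these lists was called lower, where 8.05% of all genes were called in each direction.

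Most markers of granule progenitors, a cell type of the Math1 lineage, were lower, where 22% of all genes were called lower. Of 13 granule progenitor markers 1 was higher and 11 lower, with sums of 2458 to 2820.0 CPM in Atr-deleted Bax-Bak libraries against 3384 to 4021 CPM in Bax-Bak controls. Of 13 granule neuron markers 1 was higher, 6 were lower and 6 were not called, with sums of 3259 to 3695 CPM against 4272 to 5212 CPM in Bax-Bak controls. All 14 proliferation genes were lower, with sums of 1013 to 1244 CPM against 1972 to 2170.4 CPM in Bax-Bak controls. By the direct test of the difference, 12 of 14 proliferation genes had a lower Atr effect without Bax and Bak. This was so for 2 of 13 granule progenitor and 3 of 13 granule neuron markers. None in these lists was called higher, where 8.05% of all genes were called in each direction. CPM are shares of a library, so a lower share of granule progenitor RNA and a higher amount of inhibitory lineage RNA cannot be told apart in these values. The summed level of the 9 members was 680.0 to 851 CPM in Atr-deleted Bax-Bak libraries against 436 to 518 CPM in Bax-Bak controls, and 419 to 509 CPM in Atr-deleted p53 libraries against 459.9 to 476 CPM in p53 controls. No listed marker was at 0 in every library of a group. Of the remaining lists, 3 of 10 endothelial and pericyte markers and 2 of 7 markers of deep nuclei and unipolar brush cells were higher. Of 11 tested midbrain and brainstem genes 1 was higher, and none of 12 meningeal and choroid plexus genes was called. None in these lists was lower, and 22.5% of all genes tested were called higher. The part of these shifts in the members' values was not tested.

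By profile across the 16 deep libraries, Pax2 was compared with 14521 genes of at least 1 CPM on average, by the root mean square difference of log2 CPM centred on each gene's mean. The nearest were Zfp385c (0.0988), Pcx, which encodes pyruvate carboxylase (0.110), Slc32a1 (0.111), the adhesion gene Nectin1 (0.119) and the kinase gene Wnk2 (0.127), all on the log2 scale. Pax2 itself had an SD of 0.35 on that scale. Of the other members, Tfap2b ranked 39, Tfap2a 44 and Gad1 141 in nearness to Pax2, while Ptf1a ranked 2291, Gad2 6308, Slc6a5 6629 and Neurog1 9305. Pax2 averaged 54.6 ± 4.68 CPM in Atr-deleted Bax-Bak libraries, 31.3 ± 2.34 CPM in Bax-Bak controls, 39.7 ± 6.96 CPM in Atr-deleted p53 libraries and 37.4 ± 3.42 CPM in p53 controls, and Zfp385c averaged 51.6 ± 5.89, 28.4 ± 1.11, 37.8 ± 7.90 and 35.7 ± 3.05 CPM in the same order of groups. Gad2 and Slc6a5 each ranked within the 20 genes nearest to the other, Slc6a5 at 16 for Gad2 and Gad2 at 19 for Slc6a5. Genes that are not members were nearer, with Abcg1 first for Gad2 and Kcnj10 first for Slc6a5. The libraries share genotype groups and depth, and these ranks are descriptions.

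Within genes, 3 members had at least 2 transcripts with 10% or more of their counts. Gad1 (chromosome 2, 70553072 to 70602014, GRCm38, plus strand) was counted mainly in Gad1-201, a coding transcript of 17 exons whose own first exons lie at 70562042 to 70562332 and 70563768 to 70563910, and in Gad1-206, annotated as a processed transcript of 16 exons that starts with its own exon at 70566377 to 70566453. Gad1-201 held 49.9%, 52.7%, 53.4%, 54.9% and 55.1% of Gad1 counts in the Atr-deleted Bax-Bak libraries, against 62.7%, 62.9%, 55.2% and 63.3% in Bax-Bak controls. The groups did not overlap, though control replicate 3 stood at the edge of the Atr-deleted range, and the shares averaged 53.2% ± 2.11 (SD, n = 5) and 61.0% ± 3.90 (n = 4), and the exact permutation test (two-sided) gave p = 0.00794, the smallest this design allows, or 0.0317 adjusted over 12 tests. Gad1-206 held 39.8% ± 1.81 and 33.1% ± 3.66 in these groups, which overlapped (SD, n = 5 and 4, exact permutation p = 0.0238, adjusted 0.0686). Without p53, Gad1-201 held 48.5% ± 3.51 in Atr-deleted libraries (SD, n = 4) and 59.4% ± 2.91 in p53 controls (n = 3), and the groups did not overlap (exact permutation p = 0.0571, adjusted 0.114, where 0.0286 is the smallest p possible). Gad1-206 held 44.0% ± 3.08 and 34.4% ± 3.52 in those groups, which did not overlap either (exact permutation p = 0.0286, adjusted 0.0686). As a transcript, Gad1-201 had a log2 fold change of 0.41 ± 0.12 without Bax and Bak (SE, adjusted p = 0.0499 by edgeR). Gad1-206 had 0.86 ± 0.13 (SE, adjusted p = 0.0018 by edgeR), where 5.78% of 51979 transcripts were called higher. Without p53 the log2 fold changes were -0.26 ± 0.13 for Gad1-201 and 0.38 ± 0.12 for Gad1-206 (SE), and neither was called.

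Tfap2a (chromosome 13, 40715302 to 40738376, GRCm38, minus strand) was divided between Tfap2a-202, which starts with an exon at 40733670 to 40733823, and Tfap2a-201, which starts at 40730039 to 40730443. Tfap2a-201 held 21.4%, 25.7%, 22.3%, 22.3% and 25.4% of Tfap2a counts in the Atr-deleted Bax-Bak libraries, against 17.2%, 11.9%, 15.9% and 17.2% in Bax-Bak controls. The groups did not overlap (23.4% ± 1.99 and 15.6% ± 2.51, exact permutation p = 0.00794, adjusted 0.0317). Without p53 the share was 24.6% ± 3.33 in Atr-deleted libraries and 26.9% ± 5.82 in p53 controls (SD, n = 4 and 3, exact permutation p = 0.514), so the Bax-Bak controls were the lowest of the 4 groups. As a transcript, Tfap2a-201 had 11.9 ± 2.19 CPM in Atr-deleted Bax-Bak libraries and 5.00 ± 0.877 CPM in Bax-Bak controls, a log2 fold change of 1.25 ± 0.18 (SE, adjusted p = 0.00152 by edgeR), where 5.78% of 51979 transcripts were called higher. Without p53, 0.00956% of 52274 transcripts were called and 0.00383% were called higher, and no transcript of Gad1, Pax2 or Tfap2a was among them. Pax2 (chromosome 19, 44756045 to 44837871) was divided between Pax2-201 and Pax2-203, and Pax2-201 held 52.9% ± 3.29 in Atr-deleted Bax-Bak libraries and 51.7% ± 5.36 in Bax-Bak controls (SD, n = 5 and 4, exact permutation p = 0.706). Shares of transcripts rest on how reads common to several transcripts were divided among them, and the count tables held none of the antisense genes annotated over Gad1, Pax2, Ptf1a, Slc32a1 and Tfap2a, so reads from these could be told apart only by strand.

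**Figure D4:**
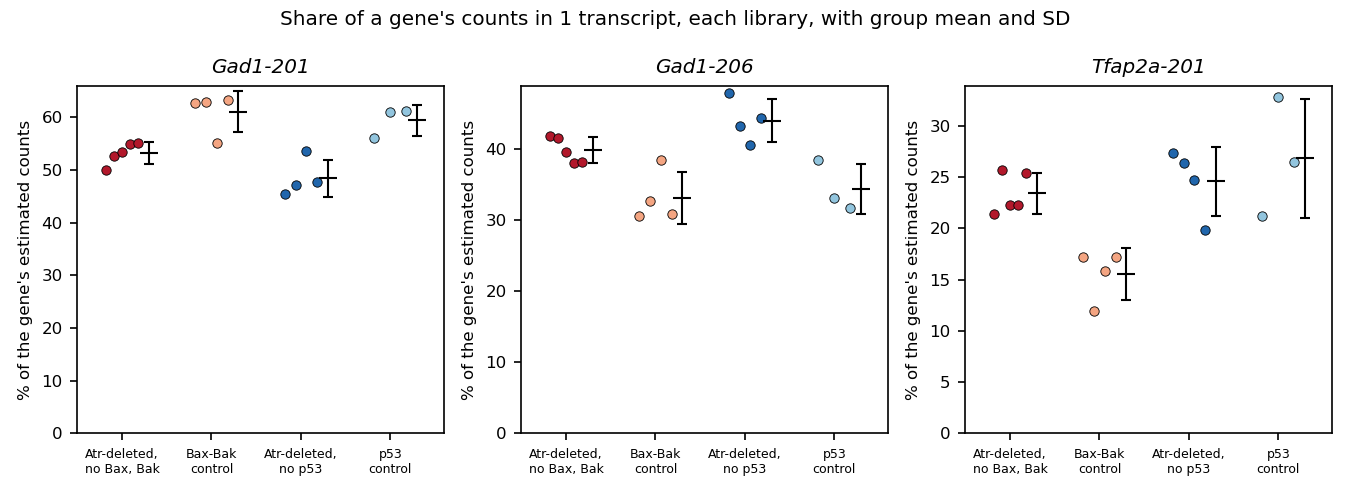
Percent of a gene's estimated counts in Gad1-201, Gad1-206 and Tfap2a-201 (vertical axes, from 0) in the 16 deep libraries by group; points are libraries and bars are the group mean and SD. Gad1-201 averages 53.2% in Atr-deleted libraries and 61.0% in controls without Bax and Bak, and 48.5% in Atr-deleted libraries and 59.4% in controls without p53.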

How the data were processed

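Poly-A RNA was measured in 17 cerebellar libraries. Estimated counts were deposited by lane for each Ensembl transcript, in separate tables for the 2 backgrounds; the labels name a stranded Illumina TruSeq kit, and the submitters' processing notes name kallisto 0.42.4, edgeR, mm9 and GRCm38 without their roles. Whether counting used strand is not given in the sources used here. Lanes were added and transcripts summed to genes by GENCODE M21 (GRCm38; 92372 of 94080 identifiers matched, and the others held 0.746% to 1.01% of counts in the deep libraries), then rounded. The 9 members had 31-base words found in other genes for at most 3.97% of their words (Gad1). Each background was fitted by itself in edgeR 4.0.16 (R 4.3.3; TMM, default filter by group, robust quasi-likelihood F-tests, Benjamini-Hochberg at 0.05 over all genes), and the differences between backgrounds in a fit of 16 libraries. SE was taken as the size of the log2 fold change over root F. TPM used transcript lengths. Transcript shares were compared by exact permutation of libraries, a test added after seeing the data.

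The members and gene lists were chosen with earlier results of these data known. Text names all members, up to 3 genes of each list by smallest p, and the 5 nearest to Pax2; of the lists of cells outside the inhibitory lineage, only Purkinje genes are named and the rest are given as counts. Some genes that the rule names are not reported here. Alternatives were scaling by median of ratios or by upper quartile, other filters, DESeq2 1.42.0, limma-voom (limma 3.58.1), a joint fit, the shallow library, number series, and each library left out. The fits were tested on simulated data. Figures and tables were made with Python 3.11.15, pandas 2.3.3, numpy 2.4.6, scipy 1.17.1 and matplotlib 3.10.9. The sample names share a number series across genotypes only in series 1843, with 1 control, which does not pair samples one to one.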

Additional observations from a re-analysis of the deposited data

Results flagged for a closer look

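The Atr effect differed between the backgrounds, by a test of the difference itself over 16 libraries, for 7 members: the difference in log2 fold change, without Bax and Bak minus without p53, was 1.11 for Neurog1, 0.93 for Gad2, 0.76 for Slc6a5, 0.74 for Slc32a1, 0.71 for Pax2, 0.62 for Gad1 and 0.48 for Tfap2b (edgeR adjusted p = 0.00649, 0.000861, 0.00205, 0.00116, 0.00659, 0.00567 and 0.0193 in that order). For Neurog1 the difference joins a higher level without Bax and Bak to a lower, uncalled one without p53. Its log2 fold change without p53 ran from -0.81 to -0.28 over alternatives of scaling, filter, tool and number series. The cause of these differences was not tested.

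In the Bax-Bak controls, 2 single libraries stood far from the other 3 by Dixon's 95% criterion. Neurog1 in replicate 1 was at 4.00 CPM, below the others, and Tfap2b in replicate 2 was at 93.2 CPM, above them. Of the 9 members in 3 groups of 4 or 5 libraries, 27 sets of values were examined, and chance marks about 1 in 20. Without that replicate 1 the Neurog1 call was lost.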

How the results depend on the processing

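Without Bax and Bak, 8 or 9 members were called higher under every alternative tried, and their median log2 fold change stayed at 0.58 to 0.77. The calls lost were those of Ptf1a and Neurog1 given above, and the cause was not tested. Without p53, no member was called under any alternative, while the count of all genes called, 8, became 14 with no filter on low counts, 129 with DESeq2, 4 with limma-voom, 70 in the joint fit, 23 with the shallow library, 5 with series 1843 only, 13 with controls of series 1845 only and 2 to 13 with a library left out. Of those called, 65.7% were higher in the joint fit, against 100% as reported. The difference between the Atr effects was called for 6 to 8 members; its 2929 genes became 1663 without the 4 libraries of high Ttr, an alternative chosen after seeing the data, and 1628 to 3562 with a library left out. Between controls, leaving out a library gave 1881 to 2746 genes against 3279, and 0 to 2 members called higher; these alternatives were also chosen after seeing the data. No paired analysis was possible because the labels state no replicate numbers, the last numbers of the sample names run within separate series, and the only series with both genotypes, 1843, holds 1 control. Other scaling gave a median log2 fold change over all genes of 0.02 or 0.06 without Bax and Bak, against 0.04. Ptf1a and Neurog1, at under 11 CPM, rest on the fewest counts.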
